A study of Mus musculus with 6 samples.

Results

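The 6 genes described here form a mouse glucose-sensing group: Mlxip (encoding MondoA), Mlxipl (encoding ChREBP), Mlx, Txnip, Arrdc3 and Arrdc4. They were found by symbol among the 54532 genes of a count table of AML12 cells, and all 6 of 6 had a row. Every cell was of the AML12 line, labelled wild type and as parenchymal hepatic cells. AML12 is an immortal hepatocyte line started from a mouse that carried a human TGF-alpha transgene, so both groups share that background and 1 line stands for both. The first group, PA/OA, had 3 libraries from cells given the series' modelling reagent PA/OA, at 400 and 800 nM in the submitters' units, for 24 h. The second group, PP, had 3 libraries from cells given 250 µg/ml PP for 24 h. The labels do not spell out PA, OA or PP, and although the series' title speaks of Camellia oleifera meal peptides, no label ties that name to PP. The sample labels name PP alone, whereas the design text mentions PP and the modelling reagent together, so whether the PP cells also received PA/OA cannot be told from the labels. The untreated group that the design text mentions was not analysed here, so each difference is between PP and PA/OA and neither can be set against untreated cells. Whether the libraries within a group are separate cultures is not stated, and p-values therefore reflect only library-to-library spread, possibly technical.

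MondoA and ChREBP are paralogous transcription factors of the basic helix-loop-helix leucine zipper class. Each becomes active when glucose 6-phosphate and related sugar phosphates accumulate, pairs with MLX, and binds the carbohydrate response element, a pair of E-box-like sequences separated by a short spacer. In liver, ChREBP is known for driving glycolytic and lipogenic genes after a carbohydrate meal, and MondoA is better known from muscle. Txnip and Arrdc4 are among the genes most directly driven by these factors. TXNIP, ARRDC3 and ARRDC4 belong to the alpha-arrestins, adaptor proteins that recruit NEDD4-family ubiquitin ligases to membrane cargo. TXNIP also binds thioredoxin and promotes removal of the glucose transporters GLUT1 and GLUT4 from the cell surface.

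Total counts were 24113169 to 26825673 in the PA/OA libraries and 27418502 to 32560589 in the PP libraries. Levels are given as CPM, counts divided by the scaled library size, with TMM scaling, which aligns the bulk of genes between libraries, with factors of 1.15 to 1.17 in PA/OA and 0.849 to 0.868 in PP. Of the 15718 genes with enough counts to be tested, 75.0% differed between the groups at an adjusted p under 0.05 (edgeR quasi-likelihood test, Benjamini-Hochberg), with 35.1% higher and 39.9% lower in PP. The choice of scaling moved all fold changes: the median over all tested genes was -0.09 on the log2 scale with TMM, -0.32 with upper-quartile scaling and -0.52 with library size alone. The called genes split into 5510 higher and 6275 lower with TMM, 4241 and 7688 with upper-quartile scaling, and 3237 and 8899 with library size alone. Even values made up 57.1% to 61.5% of the counts between 1 and 20, so the counts were also analysed after halving. Hepatocyte markers were detected at low levels for liver cells. Alb stood at 12.2 CPM in PA/OA and 9.89 in PP, Apoa2 and Tat had no count, and 3 of the 6 tested markers of 12 were lower in PP. The summed hepatocyte markers ranged from 325 to 346 CPM in PA/OA and from 113 to 131 in PP. Most of that sum was Apob, at 245 CPM in PA/OA and 75.7 in PP. Hnf4a, also called lower, went from 71.6 to 26.8 CPM (log2 fold change -1.42). Ttr, Apoa1 and Trf did not pass the test, at log2 fold changes of -0.92, 0.42 and 0.51. All 3 tested cholangiocyte markers of 5 (Krt7, Krt19 and Sox9) were higher in PP, with sums of 2334 to 2471 and of 3829 to 4247 CPM, while Epcam and Cftr had no count. Of the 7 leukocyte markers, 2 were tested. Cd68 rose from 2.78 to 27.3 CPM, and Csf1r did not pass the test, at 0.522 and 0.474 CPM (log2 fold change -0.17). The sums were 3.13 to 3.85 CPM in PA/OA and 26.5 to 29.5 in PP, mostly Cd68. Adgre1 and Clec4f had no count. Of 5 endothelial markers, 1 was tested and did not pass the test, with sums of 0.637 to 1.50 in PA/OA and 0.436 to 0.940 in PP. Of the 8 stellate cell and fibroblast markers, 3 were tested and Des and Acta2 were lower in PP, with sums of 4.12 to 5.46 and 2.02 to 5.53 CPM. These marker differences move with the groups, and their part in the results that follow was not tested. In bulk RNA, fewer cells of a type and less RNA per cell cannot be told apart.

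Within the group of 6, Mlxipl rose and Txnip fell in PP, Mlxip, Mlx and Arrdc3 did not pass the test, and Arrdc4 was almost undetected. That is 2 of the 5 tested genes called, below the 75.0% of all tested genes. In both called genes the libraries of the groups did not overlap, a property of 77.4% of all tested genes.

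**Figure D1:**
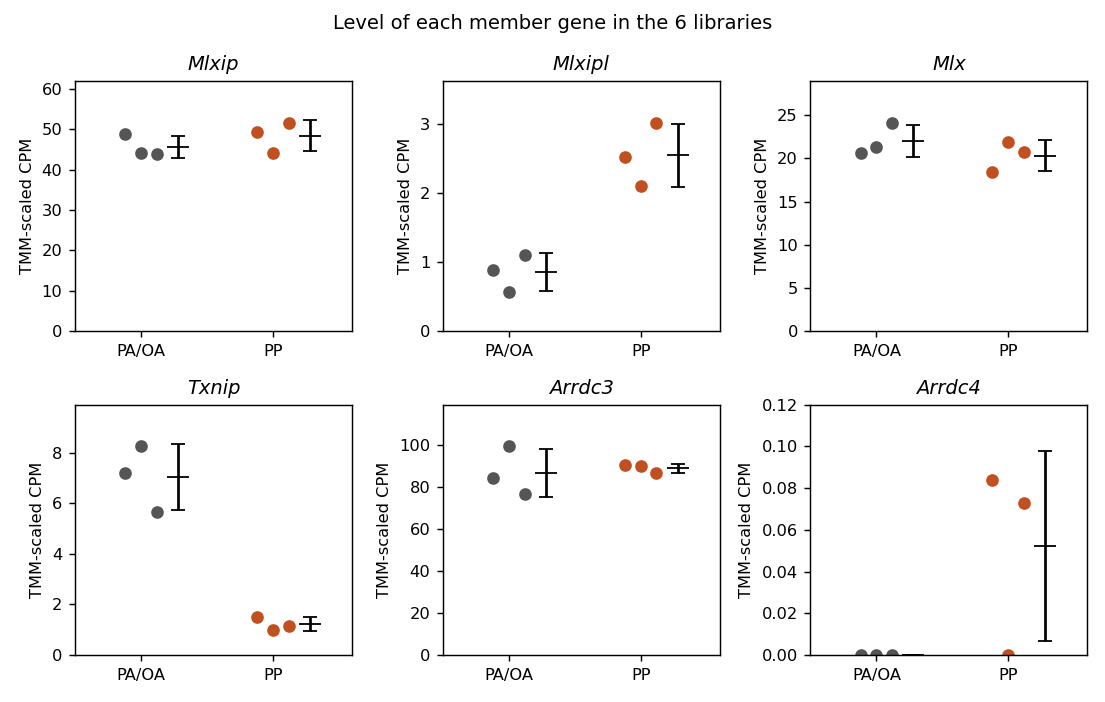
Level of each of the 6 genes in the 6 libraries, in CPM after TMM scaling on linear axes that start at 0; points are libraries and bars are the group mean with the SD (n = 3). Mlxipl is higher in every PP library, Txnip is lower in every PP library, the groups overlap for Mlxip, Mlx and Arrdc3, and Arrdc4 is at or near 0 throughout.

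Mlxipl (ENSMUSG00000005373; chr5:135089890-135138382, plus strand, mm10) encodes ChREBP, the form of the sensor usually associated with liver. Its counts were 28, 17 and 31 in PA/OA libraries 1 to 3 and 60, 58 and 83 in the PP libraries. As levels these were 0.892, 0.566 and 1.11 CPM against 2.52, 2.10 and 3.02 CPM. All 3 PP libraries lay above all 3 PA/OA libraries, and no library exceeded 3.02 CPM. The mean rose from 0.855 ± 0.272 to 2.55 ± 0.460 CPM (SD, n = 3 each), a log2 fold change of 1.57 (SE 0.33, adjusted p = 0.000208, edgeR), or 2.98-fold. The approximate 95% interval from the SE ran from 0.92 to 2.22. Among all tested genes, 4.32% rose further. The fold change stayed between 1.14 and 2.25, and passed the test, in each of 17 other ways of processing the counts.

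RefSeq gives Mlxipl 2 start sites, with windows at chr5:135089640-135089889 and chr5:135106641-135106890 (GRCm38.p6), which gene-level counts do not separate. ChREBP has an alternative promoter whose transcript encodes the shorter beta form, so the rise cannot be assigned to either. The 250 bases before the upstream start are shown because they hold a perfect E box. Capitals mark CACGTG, here 98 to 93 bases before the start, and the CCAAT box, which reads ATTGG on the other strand.
Mlxipl: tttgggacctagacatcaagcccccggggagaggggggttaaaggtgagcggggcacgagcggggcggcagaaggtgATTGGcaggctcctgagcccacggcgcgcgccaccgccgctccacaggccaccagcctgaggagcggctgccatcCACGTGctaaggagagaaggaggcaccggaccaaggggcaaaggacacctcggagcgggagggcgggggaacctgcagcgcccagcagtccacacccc
The E box CACGTG, searched on both strands, stands in 1978 of the 32851 RefSeq windows of the same length, or 6.02%. Neither CACGTG nor CCAAT stands in the window before the downstream start. A match is a description of letters and not of binding.

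Mlxip (ENSMUSG00000038342; chr5:123394798-123457932, plus strand) encodes MondoA, the paralogue that reads the same sugar phosphates. Its levels were 48.9, 44.2 and 43.8 CPM in PA/OA and 49.5, 44.2 and 51.7 CPM in PP. The groups overlapped, with the lowest PP library inside the PA/OA range. Means were 45.6 ± 2.83 and 48.4 ± 3.82 CPM, and the log2 fold change of 0.09 did not pass the test (SE 0.08, adjusted p = 0.322, edgeR; interval -0.07 to 0.24). With library size as the only scaling the value was -0.35 with an adjusted p of 0.000536, so its direction depends on the scaling.

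Mlx (ENSMUSG00000017801; chr11:101087277-101092207, plus strand) encodes the obligate partner of both sensors. The PA/OA libraries held 20.6, 21.4 and 24.1 CPM and the PP libraries 18.4, 21.8 and 20.7 CPM. Here too the groups overlapped, and PP library 1 was the lowest of the 6. Means of 22.0 ± 1.85 and 20.3 ± 1.77 CPM gave a log2 fold change of -0.12 (SE 0.10, adjusted p = 0.312, edgeR; interval -0.31 to 0.08). The decrease was called with upper-quartile scaling, at -0.35 with an adjusted p of 0.00360, and with library size alone, at -0.55 with an adjusted p of 5.02e-05. On the opposite strand, Psmc3ip shares 385 of the 1999 exonic bases of Mlx, or 19.3%, and had 69 to 181 counts per library. Since strand use in the counting is not stated, reads over those bases cannot be assigned.

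Txnip (ENSMUSG00000038393; chr3:96557957-96561883, plus strand) is the classical readout of MondoA and ChREBP, and its product binds thioredoxin. Its counts were 226, 248 and 158 in PA/OA and 36, 27 and 31 in PP. That corresponds to 7.20, 8.25 and 5.64 CPM against 1.51, 0.976 and 1.13 CPM. Every PP library was well under the lowest PA/OA library. The mean fell from 7.03 ± 1.31 to 1.21 ± 0.277 CPM (SD, n = 3 each), a log2 fold change of -2.55 (SE 0.24, adjusted p = 2.76e-09, edgeR; interval -3.02 to -2.08). This is a 5.86-fold lower level, and 9.03% of all tested genes fell further. Over the same 17 alternatives the value lay between -2.98 and -2.08 and passed the test each time. The antisense gene Gm15441 shares 606 of the 3123 exonic bases of Txnip, 19.4%, but had at most 4 counts in any library.

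Arrdc4 (ENSMUSG00000042659; chr7:68736995-68749241, minus strand), an alpha-arrestin that, like Txnip, is a known MondoA target, had 0 counts in all 3 PA/OA libraries and 2, 0 and 2 in PP. It did not pass the count filter, so it was not tested in the reported fit, and no fold is given. The 0 of 76979421 counts in PA/OA allow up to 0.0390 CPM without scaling (3 counts), and the 4 of 91811330 in PP make 0.0436 CPM, values that cover counting error only. A difference between the groups was not detectable at this depth.

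The windows before the starts of Txnip and Arrdc4 are shown because both genes are textbook targets of the sensors and one was measurable while the other was not. Both are read 5′ to 3′ on the strand of the gene from RefSeq's table on GRCm38.p6, at chr3:96557707-96557956 (plus) and chr7:68749239-68749488 (minus). Capitals mark the E box CACGTG, a pair of E-box-like elements 5 bases apart, and CCAAT or its reverse ATTGG.
Txnip: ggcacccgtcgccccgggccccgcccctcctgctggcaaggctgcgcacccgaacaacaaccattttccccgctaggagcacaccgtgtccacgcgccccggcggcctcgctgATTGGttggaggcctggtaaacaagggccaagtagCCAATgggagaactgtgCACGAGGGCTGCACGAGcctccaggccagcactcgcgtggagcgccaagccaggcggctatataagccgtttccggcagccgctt
Arrdc4: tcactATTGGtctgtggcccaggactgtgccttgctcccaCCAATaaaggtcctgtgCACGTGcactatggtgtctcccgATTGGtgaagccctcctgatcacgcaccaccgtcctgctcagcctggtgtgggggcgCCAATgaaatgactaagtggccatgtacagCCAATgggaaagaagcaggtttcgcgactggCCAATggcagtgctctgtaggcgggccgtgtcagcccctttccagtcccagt
The Txnip window holds the pair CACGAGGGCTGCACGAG, 85 to 69 bases before the start (chr3:96557872-96557888), and 2 CCAAT boxes. The search pattern, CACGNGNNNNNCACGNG on both strands, was written after this sequence was seen, and it stands in 15 of 32851 windows, or 0.0457%. The single element CACGNG, which CACGTG also matches, stands in 23.5% of windows. In Arrdc4 the window holds no such pair but 1 CACGTG, 193 to 188 bases before the start, and 6 CCAAT boxes. At least 4 CCAAT boxes stand in 276 windows, or 0.840%, at least 2 in 10.1%, and at least 1 in 33.8%. The facing form of the pair, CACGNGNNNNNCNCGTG, stands in 13 windows, or 0.0396%. One of these is the window of Pklr, with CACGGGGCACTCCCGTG at chr3:89136453-89136469, 170 to 154 bases before its start. Mlx has a CACGTG 40 to 35 bases before its start, and neither Mlxip nor Arrdc3 has one in its windows.

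Arrdc3 (ENSMUSG00000074794; chr13:80883384-80896042, plus strand), an alpha-arrestin known for directing beta-adrenergic receptors to ubiquitination, was the most abundant member by CPM. It stood at 84.4, 99.4 and 76.7 CPM in PA/OA and 90.3, 90.0 and 86.5 CPM in PP. All 3 PP libraries lay within the PA/OA range. Means were 86.8 ± 11.5 and 88.9 ± 2.10 CPM, with a log2 fold change of 0.03 (SE 0.07, adjusted p = 0.691, edgeR; interval -0.11 to 0.18). Its direction turned with the scaling: the value was -0.20 with upper-quartile scaling (adjusted p = 0.0167), -0.29 with each library's abundance trend removed (adjusted p = 0.00149), and -0.40 with library size alone (adjusted p = 5.89e-05).

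**Figure D2:**
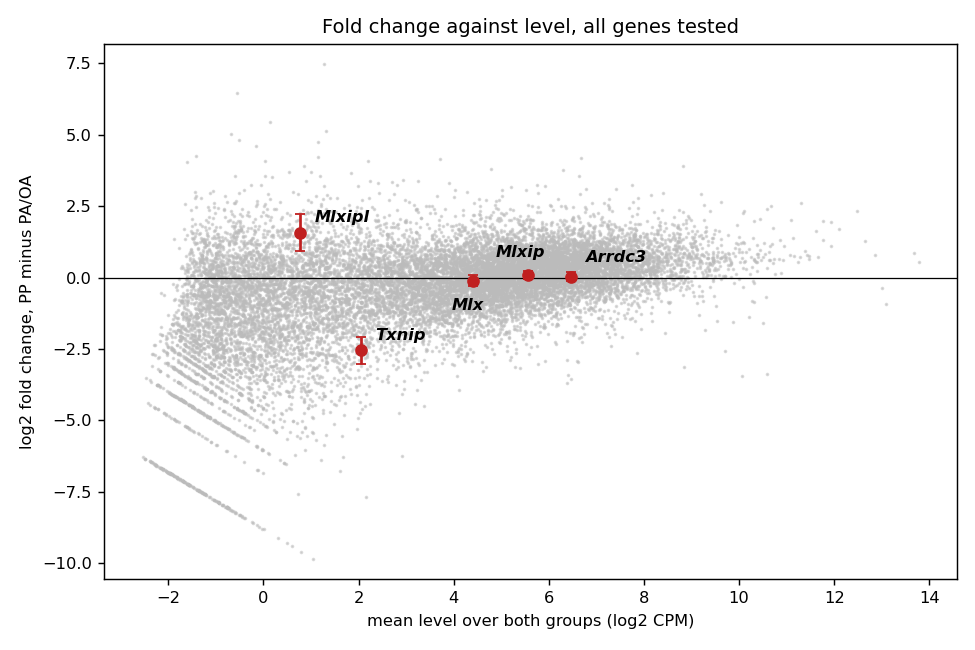
Log2 fold change (PP minus PA/OA) against mean level in log2 CPM for all 15718 tested genes in grey, with the 5 tested members in red and bars for their approximate 95% interval; the scale of both axes is log2. Mlxipl at 1.57 and Txnip at -2.55 lie at the low-abundance side, while Mlxip, Mlx and Arrdc3 lie near 0 at higher abundance.

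Ranked by CPM per kilobase of gene length, the level scale on which genes can be compared, the PA/OA cells had Arrdc3 at 13.9 ± 1.84, Mlx at 11.0 ± 0.927, Mlxip at 5.48 ± 0.340, Txnip at 2.25 ± 0.421 and Mlxipl at 0.154 ± 0.0492, with Arrdc4 listed at 0. The PP cells had Arrdc3 at 14.2 ± 0.335, Mlx at 10.2 ± 0.886, Mlxip at 5.82 ± 0.459, Mlxipl at 0.460 ± 0.0831, Txnip at 0.386 ± 0.0887 and Arrdc4 at 0.0129 ± 0.0113. Mlxip was thus the predominant sensor transcript in both groups. Txnip and Mlxipl changed places in this order. In PA/OA, Txnip was 14.6 times Mlxipl, whereas in PP the libraries of these 2 genes overlapped and their means differed by 1.19 times. No other neighbours in the order overlapped, although Arrdc3 and Mlx were close in PA/OA.

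Ratios between members of a library do not depend on a scaling that uses 1 factor per library. They were compared per length on the log2 scale. Removing the abundance trend shifts genes by level, and the ratios were not recomputed under it. With that setting the log2 fold changes were 2.25 for Mlxipl and -0.11 for Mlxip, and -0.29 for Arrdc3 and -2.08 for Txnip. The ratio of Mlxipl to Mlxip was -5.16, -5.66 and -4.70 in PA/OA and -3.69, -3.80 and -3.50 in PP. Every PP library was above every PA/OA library, and the mean moved from -5.17 ± 0.48 to -3.66 ± 0.15, a difference of 1.51 or 2.84-fold. The exact two-sided permutation test gave p = 0.1, the smallest that 3 against 3 libraries allow, and 0.15 after adjustment over the 3 ratios compared. For Arrdc3 to Txnip the ratio was 2.54, 2.58 and 2.76 in PA/OA and 4.87, 5.50 and 5.24 in PP. Again the groups did not overlap, with means of 2.63 ± 0.11 and 5.20 ± 0.31 and a difference of 2.57 or 5.95-fold (exact permutation p = 0.1, adjusted 0.15). The ratio of Mlx to Mlxip overlapped, at 1.01 ± 0.19 and 0.80 ± 0.21, a difference of -0.20 (exact permutation p = 0.3, adjusted 0.3). Since none of these tests can pass 0.05, the values are a description of unequal change within libraries.

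**Figure D3:**
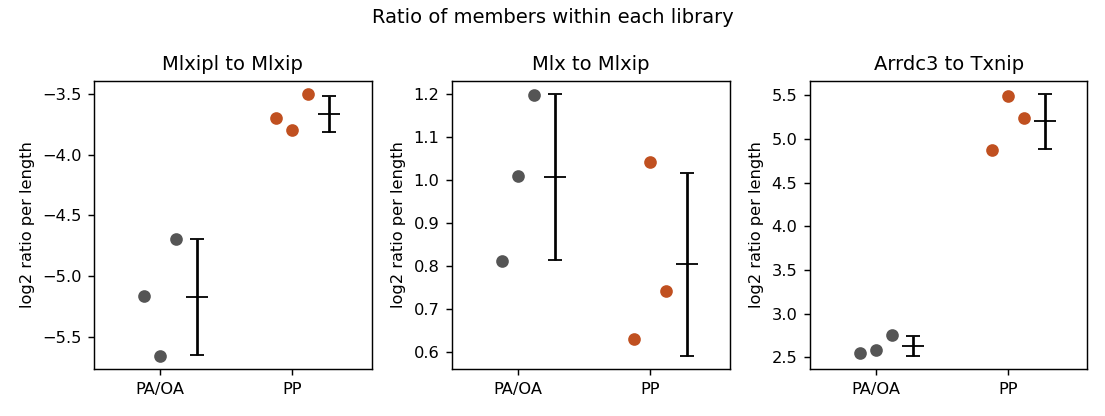
Log2 ratio of Mlxipl to Mlxip, Mlx to Mlxip and Arrdc3 to Txnip per length in each of the 6 libraries; points are libraries and bars are the group mean with the SD (n = 3). The first and the third ratio are higher in every PP library, by 1.51 and 2.57 on average, and the ratio of Mlx to Mlxip overlaps.

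The lists that follow are read against all tested genes, of which 75.0% were called, 35.1% higher and 39.9% lower. Genes commonly driven by ChREBP were called in both directions, at shares near that background. Of 14 targets in glycolysis, fructose use and glucose output, 11 were tested, 4 were higher, 5 lower and 2 did not pass the test (81.8% called), with a median log2 fold change of -0.41 beside -0.09 over all tested genes. Pklr, liver pyruvate kinase and a classical carrier of the carbohydrate response element, fell from 43.4 ± 5.25 to 19.3 ± 0.860 CPM (log2 fold change -1.17, SE 0.09, adjusted p = 2.45e-10). It shares 711 of its 3236 exonic bases, 22.0%, with Hcn3 on the opposite strand. Gpd1, glycerol 3-phosphate dehydrogenase, fell from 4.59 ± 0.466 to 0.263 ± 0.238 CPM (-4.15; -4.76 without PP library 1 and -3.52 without PP library 2), and Pfkfb1, the liver form of the enzyme that sets fructose 2,6-bisphosphate, fell from 8.72 to 3.17 CPM (-1.46). By contrast Pgk1, phosphoglycerate kinase, rose from 1977 to 4952 CPM (1.33). Slc2a2, the liver glucose transporter GLUT2, had 12, 29 and 14 counts in the PA/OA libraries, 55 in sum, and none in PP. After scaling, that sum was 16.2-fold above a floor of 3 counts over the PP group. This bound takes the PA/OA counts as exact and leaves out their spread. With halved counts that bound was 7.94-fold. G6pc, glucose 6-phosphatase, had 2 counts in a single library and was not tested.

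Among 15 ChREBP targets of lipid synthesis and export, 12 were tested; 5 rose, 5 fell (83.3% called, near the background) and the median was 0.10. Fatty acid synthase Fasn fell from 272 ± 29.6 to 109 ± 4.68 CPM (-1.31), acetyl-CoA carboxylase Acaca from 167 ± 8.46 to 69.2 ± 1.24 CPM (-1.27), and the elongase Elovl6 from 33.9 to 12.4 CPM (-1.46). The stearoyl-CoA desaturase Scd1 rose instead, from 436 ± 12.7 to 1557 ± 46.1 CPM (1.84). Of 9 targets that are factors, hormones or signalling genes only 4 could be tested, 3 higher and 1 lower, with a median of 1.34. The repressor Klf10 rose from 59.1 ± 6.92 to 211 ± 19.9 CPM (1.83, adjusted p = 4.17e-15) and Bhlhe40, a repressor that binds E boxes, from 365 ± 33.1 to 1846 ± 138 CPM (2.34). The liver hormone gene Fgf21 had at most 8 counts in a library and was not tested.

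The wider network of MLX, MAX and the MXD repressors shares E boxes, and only in part the partner MLX, with the sensors. Of its 7 genes tested, 4 were higher, 2 lower and 1 did not pass the test (85.7% called), with a median of 0.42. The count of 2 lower was 1 without PA/OA library 1, PP library 1 or PP library 3. Mxd1, a repressor that pairs with MAX or MLX family proteins, rose from 19.1 ± 1.27 to 127 ± 10.3 CPM (2.73), Mxi1 from 66.7 to 234 CPM (1.81) and Mnt from 47.2 to 155 CPM (1.72). Mxd4 fell from 47.1 to 32.1 CPM (-0.55). Of the 21 cofactors and modifiers of ChREBP, 8 were higher, 9 lower and 4 not called (81.0% called), and the median was -0.03. This split became 3 higher and 13 lower with library size alone, 5 and 13 with upper-quartile scaling, and 3 and 15 with the abundance trend removed. The acetyltransferase Crebbp fell from 101 to 32.6 CPM (-1.64), and the liver X receptor Nr1h3 from 16.7 to 3.83 CPM (-2.12), while the salt-inducible kinase Sik1 rose from 111 to 300.0 CPM (1.43). Ogt, the O-GlcNAc transferase, stood at 599 and 608 CPM and did not pass the test (0.02, adjusted p = 0.743, edgeR), but it was called lower with upper-quartile scaling (-0.22, adjusted p = 0.00143), library size alone (-0.41, adjusted p = 9.56e-07) and trend removal (-0.61, adjusted p = 2.65e-09).

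The list of other arrestins, which also holds the arrestin-fold genes Vps26a, Vps26b and Dscr3 (Vps26c), was more uniform. Of its 10 genes, 8 were tested, 7 rose, none fell and 1 missed the threshold. Those that rose were Arrdc1, Arrdc2, Arrb1, Arrb2, Vps26a, Vps26b and Dscr3. The median of the 8 tested genes was 1.07, beside 35.1% of all tested genes higher. The counts of 7 higher and 0 lower held under each scaling tried, and with the abundance trend removed 8 were higher. Arrdc2, an alpha-arrestin like Arrdc3, had 23.8, 15.2 and 20.7 CPM in PA/OA and 54.7, 53.0 and 50.0 in PP. Every PP library was above every PA/OA library, with means of 19.9 ± 4.32 and 52.6 ± 2.37 CPM (1.40, adjusted p = 1.84e-10). Arrdc1 rose from 12.6 ± 2.11 to 23.6 ± 0.362 CPM (0.90, adjusted p = 3.95e-07). Among the remaining genes of this list, the beta-arrestin Arrb2 rose from 9.76 to 29.7 CPM (1.61) and the retromer subunit Vps26a, an arrestin fold protein, from 66.2 to 160 CPM (1.28). Thus Arrdc1 and Arrdc2 rose, Txnip fell, and Arrdc3 did not pass the test.

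For the thioredoxin system and TXNIP's partners, 16 of 18 genes were tested, 8 higher, 4 lower and 4 not called, and the median was 0.19. The called share equals the background of 75.0%, and the split became 2 higher and 8 lower with library size alone, 5 and 6 with upper-quartile scaling, and 5 and 7 with trend removal. Cytosolic thioredoxin Txn1, the protein TXNIP binds, rose from 97.6 to 120 CPM (0.30, adjusted p = 0.000328), a sign that turned with library size alone and with trend removal and a call that upper-quartile scaling ended, at 0.06. Its reductase Txnrd1 stood at 402 and 389 CPM and did not pass (-0.05, adjusted p = 0.382, edgeR). It was called lower with library size alone (-0.48), upper-quartile scaling (-0.29), trend removal (-0.61) and protein-coding genes only (-0.13). Ddit4, which forms a complex with TXNIP, rose from 347 to 1093 CPM (1.66), and the thioredoxin-like Txnl1 from 121 to 314 CPM (1.37). Pycard, the adaptor of the inflammasome that TXNIP can bind, summed to 226 counts in PA/OA and to 2 in PP, both in PP library 1. That is a level 99.7 times higher in PA/OA, with a counting interval of 27.3 to 828, or of 17.5 to 3973 with halved counts. Nlrp3, the sensor of that inflammasome, had at most 4 counts in a library and was not tested.

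Of 17 NEDD4-family ligases and known arrestin cargo, 15 were tested, 8 higher, 2 lower and 5 not called (66.7% called, under the background), and the median was 0.12. The split became 6 higher and 6 lower with library size alone, and 7 and 6 with upper-quartile scaling or trend removal. Nedd4l rose from 119 to 237 CPM (0.99), Itch, the ligase known to bind TXNIP, from 78.2 to 104 CPM (0.41), and Nedd4 from 1653 to 1798 CPM (0.12, adjusted p = 0.0345). The call of Itch was lost with library size alone (-0.021) and with trend removal (0.08). Nedd4 was called lower with library size alone (-0.31), upper-quartile scaling (-0.12) and trend removal (-0.66). Its rise also lost the call with DESeq2 size factors (adjusted p = 0.0539), the filter of at least 1 CPM in 3 libraries (0.222), protein-coding genes only (0.494), halved counts (0.137), and without PA/OA library 3 (0.111) or PP library 3 (0.0529). Ndfip1 and Ndfip2, adaptors that activate these ligases, rose from 58.0 to 128 (1.14) and from 80.1 to 170 CPM (1.08), and the ligase Hecw1 fell from 13.4 to 4.28 CPM (-1.66). Of the 22 genes of glucose uptake and glucose 6-phosphate, 16 were tested, 10 higher and 2 lower, with a median of 1.07. The called share again equals the background of 75.0%. The lower count ranged from 1 to 5 over the alternatives and was 4 without PP library 2 and 3 without PA/OA library 2, PP library 1 or PP library 3. The cargo of TXNIP, the transporter Slc2a1 (GLUT1), rose from 201 ± 4.83 to 811 ± 16.7 CPM (2.01), and Slc2a4 (GLUT4) from 0.555 to 3.44 CPM (2.63). Hexokinase Hk1, which makes the glucose 6-phosphate that the sensors read, rose from 187 to 753 CPM (2.01), and Hk2 stood at 1.56 and 1.40 CPM and did not pass the test (-0.17, adjusted p = 0.640). Gfpt1, the entry enzyme of the hexosamine pathway, rose from 219 to 1112 CPM (2.35). The 2 lower genes were the transporter Slc2a12, from 0.704 to 0.0241 CPM (-4.58), and H6pd, from 344 to 250 CPM (-0.46). Slc2a1, Slc2a4 and Hk1 were thus higher in the same libraries in which Txnip, Slc2a12 and Slc2a2 were lower. Slc2a4 had only 19, 5 and 25 counts in the PA/OA libraries. A link between these changes was not tested.

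**Figure D4:**
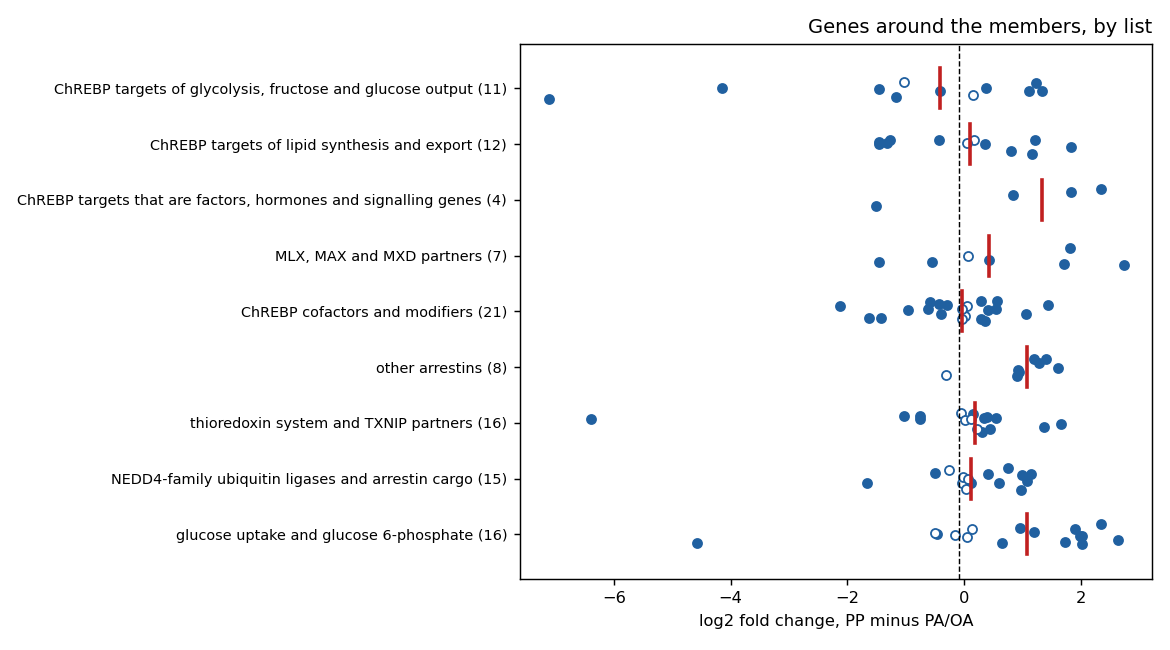
Log2 fold change (PP minus PA/OA) of each tested gene in the 9 lists around the members, with the number tested in brackets; each point is a gene, filled where the adjusted p is under 0.05, the red bar is the list's median and the dashed line is the median over all tested genes, -0.09. Points of most lists lie on both sides of the line, and 7 of the 8 tested genes in the list of other arrestins are called higher.

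The genes whose pattern over the 6 libraries was nearest to each member were found by the root mean square difference of centred log2 CPM, among 9382 protein-coding genes. Nearest to Txnip were Mtx3 at 0.126, which went from 9.35 to 1.65 CPM, and Ttpal at 0.163, which went from 42.1 to 8.18 CPM. Nearest to Mlxipl were Cnnm2 at 0.184, from 10.8 to 28.3 CPM, and Xdh at 0.185, from 6.42 to 16.9 CPM. The genes that hardly moved had nearer neighbours: Arhgap26 (0.0204) and Tbc1d22b (0.0226) for Mlxip, Tmem161a (0.0297) and Mfsd5 (0.0400) for Mlx, and 1810022K09Rik (0.0302) and Zfand1 (0.0353) for Arrdc3. With 6 libraries in 2 groups, this likeness is a description only.

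**Figure D5:**
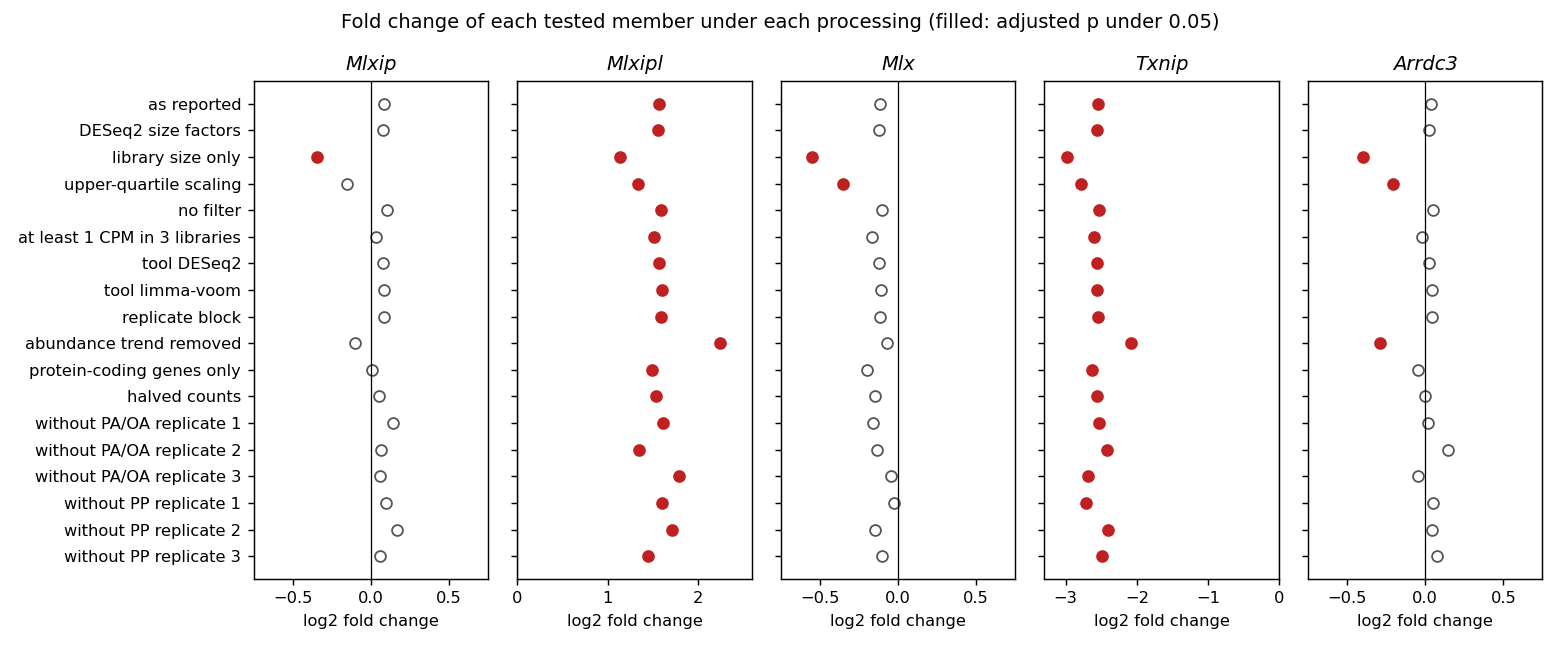
Log2 fold change of the 5 tested members as reported and under each of 17 alternative ways of processing; filled points have an adjusted p under 0.05. Mlxipl stays above 0 and Txnip below 0 throughout, while Mlxip, Mlx and Arrdc3 shift with the scaling.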

How the data were processed

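RNA was sequenced from 6 AML12 libraries, 3 per group. The authors deposited one table of counts per gene with Ensembl identifiers, symbols, coordinates and lengths. Per the submitters' processing notes, featureCounts, the build mm10 and DESeq2 1.16.1 were used; the aligner, the annotation release and strand use in counting were not given in the sources used here, and the labels' protocols describe both conventional and strand-specific libraries.

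Counts were fitted as deposited with edgeR 4.0.16 in R 4.3.3 (filterByExpr, TMM, quasi-likelihood F-test, two-sided), with Benjamini-Hochberg adjustment over all 15718 genes tested of 54532; 26561 genes had no count. The biological coefficient of variation was 7.96%. Alternatives were other scalings (library size, upper quartile, DESeq2 size factors, abundance trend removed), other filters, protein-coding genes only, halved counts, limma-voom (limma 3.58.1), DESeq2 1.42.0, the replicate number as a block and leaving out each library. Ratios used log2 of the count plus 0.5 per length with an exact permutation test. Of 5 ratios planned, both with Arrdc4 rest on the added count and were left out, so adjustment is over 3. Exon overlaps came from GENCODE M21 and promoter windows from RefSeq (GRCm38.p6).

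The members and lists were chosen with earlier results of these data known, and the lists come from general knowledge. Named were all members, the 3 largest called changes of each list with at least 1 CPM and groups that do not overlap, and a fixed set of well-known genes; some genes that this rule names are not reported here. Same-numbered libraries did not deviate together (correlations between -0.0234 and 0.00517), and the reported fit used no pairing by number. These correlations cannot decide whether same-numbered libraries share a culture or day, which the labels do not state.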

Additional observations from a re-analysis of the deposited data

How the results depend on the processing

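Mlxipl (1.14 to 2.25) and Txnip (-2.98 to -2.08) kept direction and call in all 17 alternatives, and Arrdc4 could not be tested under the filters. Scaling moved the rest. With library size alone, Mlxip was -0.35, Mlx -0.55, Arrdc3 -0.40, Ogt -0.41, Txn1 -0.14, Nedd4 -0.31 and Itch -0.021; 3237 genes were higher. The same setting gave 3 lipid targets higher, 3 cofactors higher, 2 thioredoxin genes higher and 8 lower, 6 NEDD4-list genes lower and 5 glucose-uptake genes lower. With upper-quartile scaling, Mlx was -0.35, Arrdc3 -0.20, Ogt -0.22 and Nedd4 -0.12, with 5 cofactors and 5 thioredoxin genes higher and 6 NEDD4-list genes lower. With the abundance trend removed, Arrdc3 was -0.29, Ogt -0.61, Txn1 -0.063 and Nedd4 -0.66, with 3 cofactors higher and 15 lower, 5 thioredoxin genes higher and 7 lower, and 6 NEDD4-list genes lower. A filter of at least 1 CPM in 3 libraries, and halved counts, each left 1 MLX partner and 1 glucose-uptake gene lower. Beyond these scalings the cause of a change was not tested.

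Leaving out each library in turn gave 1 to 2 MLX partners lower and 2 to 4 glucose-uptake genes lower. Ratios moved within 1.27 to 1.75 (Mlxipl to Mlxip), -0.32 to -0.11 (Mlx to Mlxip) and 2.43 to 2.74 (Arrdc3 to Txnip). Gpd1 was -4.76 without PP library 1 and -3.52 without PP library 2. Pycard had a fitted value of -6.40, and of -9.18 without PP library 1, and rests on the 2 counts of that library. With the replicate block, Txnip was -2.54 and Mlxipl 1.59, 5427 genes were higher and 6088 lower, and no call of the 45 named genes changed. For the ratios, the mean difference over 3 pairs equals the unpaired difference by construction, so the block could change only the p-value. The exact sign-flip p was 0.25 for Mlxipl to Mlxip and Arrdc3 to Txnip and 0.5 for Mlx to Mlxip. The value of 0.25 is the smallest that 3 pairs allow. Low counts limit Arrdc4, which had 0 counts in PA/OA and 4 in PP. Only the fit without a filter included it, and it was not called there (adjusted p = 0.203, edgeR).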

Other observations

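Besides Txnip and Pklr, the paired element described for their promoters stood in the windows of 18 other genes, a set found after the Txnip sequence was seen. The 20 genes have 21 such windows, and 11 of the genes were tested: 6 were higher, 2 were lower (Txnip and Pklr) and 3 did not pass the test, with a median log2 fold change of 0.45. The set pools the same-orientation form and the facing form. Without Txnip, whose sequence set the same-orientation pattern, 7 of 10 were called, 70.0%, beside 75.0% of all tested genes. Pklr, a classical carrier of the element found by the facing form, stays among these 10. Fnip1, which encodes a folliculin-interacting protein, was higher at 1.93, with its element 156 to 140 bases before the start. Man2b2, a lysosomal mannosidase, was higher at 1.04, the chromatin protein gene Rbbp4 at 0.93 and Fem1b at 0.92. No test of the set was made.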
